A study of Mus musculus with 12 samples.

Results

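The genes described here are the matrix metalloproteinases (Mmp), the membrane-anchored ADAM proteases (Adam), the secreted ADAMTS proteases and ADAMTS-like proteins (Adamts, Adamtsl) and the tissue inhibitors of metalloproteinases (Timp), chosen by the symbols of the deposited gene table. Of 51490 genes in the table, 85 had such a symbol, and the 65 with a count in at least 1 library are the members. The cells are iMEPM cells, an immortalized line of mouse embryonic palatal mesenchyme derived from a male Cdkn2a-/- embryo, so that every group lacks Cdkn2a. They carried a lentiviral shRNA cassette with EGFP and a puromycin marker, expressing either a scramble shRNA or an shRNA against the 3' end of Srsf3 (shSrsf3), an RNA-binding protein of the SR family that controls alternative splicing. After puromycin selection the cells with the brightest GFP were sorted and expanded into 1 line per shRNA, so that the shRNA and the line that carries it cannot be told apart. All cells were serum-starved. Some then received PDGF-AA, a ligand of the receptor PDGFRα, at 10 ng/mL for 1 hr (+PDGF-AA) and the others none (-PDGF-AA), which gave 4 groups with 3 biological replicates each (scramble -PDGF-AA, shSrsf3 -PDGF-AA, scramble +PDGF-AA and shSrsf3 +PDGF-AA).

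Metalloproteases of these families hold a zinc ion in the active site, are made as inactive proforms, and cleave proteins in the matrix or at the cell surface. MMPs cut collagens and other matrix proteins, ADAMs release growth factors, receptors and adhesion molecules from the membrane, and ADAMTS proteases trim procollagens, large proteoglycans such as versican, and fibrillin microfibrils. ADAMTS-like proteins share the ancillary domains of ADAMTS proteases but have no protease domain, and TIMPs block the active sites. In the embryonic palate, mesenchyme fills shelves that are rich in hyaluronan and versican, and mice with reduced Adamts9 and Adamts20 are known for a cleft palate.

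Values are estimated read counts per gene, here also given as CPM, that is, relative to the library total after scaling by the trimmed mean of M-values. Library totals ranged from 30958966 to 76123359 counts. Srsf3 itself, the target of the shRNA, had 206 ± 6.59 CPM in scramble and 163 ± 1.46 CPM in shSrsf3 cells in the absence of ligand (SD, n = 3), and 222 ± 8.07 and 165 ± 4.33 CPM with ligand, with log2 fold changes of -0.34 and -0.43. Markers of palatal mesenchyme summed to between 31170 and 36670 CPM per library, with Tbx22 at 0 counts. In scramble -PDGF-AA cells, Col1a1, Col1a2 and Vim made up most of this sum, with means of 18240, 12480 and 4327 CPM. Prrx1, Pdgfra and Twist1 had 515, 73.9 and 64 CPM there, and Alx1, Osr2 and Msx1 only 6.6, 5.23 and 1.7 CPM. Markers of epithelium, endothelium, blood, muscle, and glia and neurons summed to at most 34.6 CPM, with Adgre1, Myod1, Sox10 and Snap25 at 0. The sums for mesenchyme, epithelium, endothelium, and glia and neurons were lower in every shSrsf3 than in every scramble library, and their part in the results below was not tested. In the study's methods the lowest mapping rates are those of replicate 2 of scramble +PDGF-AA and of replicates 1 and 2 of the unstimulated scramble group. Timp2 was low in these 3 libraries. Other members, such as Adam33, Adam8, Mmp25 and Adamts6, were lower there to a lesser degree, and Adam5 was higher. Adamts15 was lower in these libraries without ligand and higher with it. Results with and without these libraries are given for Timp2, Adamts18, Adam33 without ligand and the ligand response in scramble cells. Other members and the counts of DE members between the lines are not given without these 3 libraries. Leaving them out keeps only 1 scramble -PDGF-AA library, so that the spread then comes from the other groups and the lone library is assumed to vary like them.

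Of the 65 members, 48 passed the filter for low counts and were tested. The other 17 had at most 13 counts in any library and were not tested. Among these were the collagenases Mmp8 and Mmp13 with totals of 9 and 5 counts over all 12 libraries, the stromelysin Mmp3 with 35 counts, and Timp4, a TIMP best known from heart, with 2 counts. Another 20 genes with a family symbol had a count of 0 throughout, which allows up to 3 counts in a library, or 0.0388 to 0.0966 CPM depending on its depth. A stretch of chromosome 9 holds 10 Mmp genes side by side (Mmp13, Mmp12, Mmp1b, Mmp3, Mmp1a, Mmp10, Mmp8, Mmp27, Mmp20 and Mmp7), and none of them was tested. Similarly, of 21 ADAM genes known mainly from the germ line, 8 had any count and 3 were tested (Adam1a, Adam5 and Adam32). Of the 31-base stretches in Adam1a transcripts, 53.4% also occur in other genes, so that its counts are uncertain.

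Because counts grow with transcript length, levels were compared between genes as CPM per kilobase of the annotated transcript. Timp3, an inhibitor that binds to the matrix and also blocks ADAM17 and aggrecanases, had the highest level in each group, at 586 ± 50.5 CPM per kb in scramble -PDGF-AA cells. It held 35.6% of the summed level of all members, averaged over libraries. Mmp14, the membrane-anchored collagenase MT1-MMP, followed at 154 ± 1.84 CPM per kb, and Mmp2, the gelatinase it activates, at 137 ± 4.65 CPM per kb. Timp1 had 122 ± 3.58 CPM per kb in the same group. Mmp2 and Timp1 changed places in scramble +PDGF-AA cells, at 136 ± 5.32 and 139 ± 2.41 CPM per kb, and did not differ there beyond their spread. Adam9, a membrane protease found in many tissues, and Adamts1, a versican-cleaving ADAMTS, likewise changed places between groups, at 60.7 ± 2.93 and 46.0 ± 2.21 CPM per kb in scramble -PDGF-AA cells and 56.4 ± 1.75 and 59.5 ± 1.19 CPM per kb in shSrsf3 -PDGF-AA cells. Adam10, Adam15, Adamts5 and Timp2 completed the 10 highest members, with means over all libraries of 38.2, 35.3, 30.5 and 27.6 CPM per kb. Each of the 2 gelatinases was tested, but Mmp9 had only 1.24 ± 0.124 CPM in scramble -PDGF-AA cells against 425 ± 14.4 CPM for Mmp2.

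**Figure D1:**
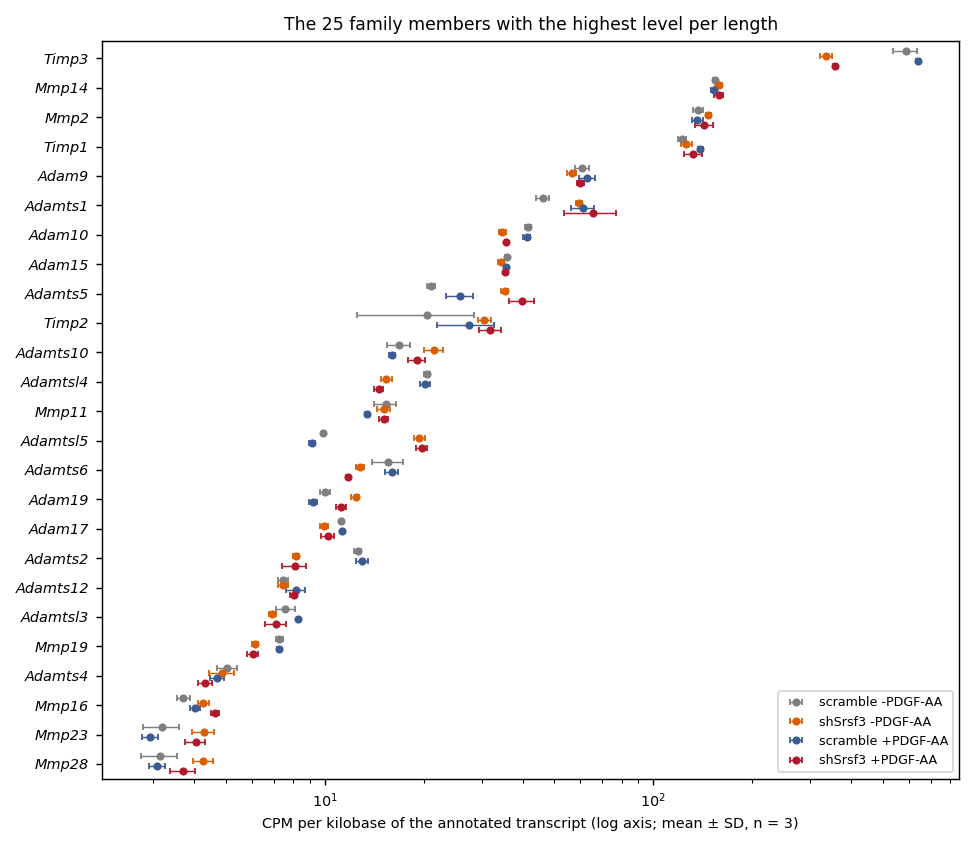
Levels of the 25 highest members in CPM per kilobase of transcript on a log axis, with 1 point per group (mean ± SD, n = 3). Timp3 lies to the right of all others in each group, with means of 336 and 356 CPM per kb in the shSrsf3 groups against 586 and 639 CPM per kb in the scramble groups.

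To determine how the family differed between scramble and shSrsf3 cells, the groups were compared in the absence and in the presence of ligand. DE genes were those with an adjusted p of 0.05 or less in edgeR's quasi-likelihood test over all 15037 genes tested and a change of at least 2-fold. In the absence of ligand, 10 of the 48 members (20.8%) were DE, 5 higher and 5 lower in shSrsf3 cells, where 5.75% of all genes tested were DE (2.99% higher and 2.76% lower). With ligand, 8 members (16.7%) were DE, 4 in each direction, against 5.42% of all genes (2.85% higher and 2.57% lower). Without the fold minimum, 30 members passed the test in the absence of ligand, 17 higher and 13 lower, or 62.5% against 45.9% of all genes (22.2% higher and 23.7% lower). With ligand 28 passed, 15 higher and 13 lower, or 58.3% against 41% of all genes (20.3% higher and 20.7% lower). The median size of a member's log2 fold change, regardless of sign, was 0.39 without and 0.27 with ligand, while it was 0.2 and 0.19 over all genes, and the signed medians were 0.02 and -0.05. Both signed medians lay near 0, as did those over all genes, at -0.02 and -0.01. The groups of 3 libraries did not overlap for 32 and 31 members, or 66.7% and 64.6%, where this held for 53.3% and 52.6% of all genes. These libraries are of bulk RNA, in which fewer cells of a type and less RNA per cell cannot be told apart.

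The comparisons without and with ligand use different libraries. They shared 7 DE members, 70% of the 10 and 87.5% of the 8, and 26 members that passed the test, 86.7% of the 30 and 92.9% of the 28. Over all genes, the shared DE genes were 67.6% and 71.7% of those called without and with ligand, and the shared genes that passed 73.4% and 82.1%. The direction was the same for each of these shared members. Over all genes it was the same for 582 of 584 shared DE genes and 5062 of 5066 shared genes that passed. Adam8, Adamts1, Mmp9 and Timp2 passed only in the absence of ligand, and Adamtsl3 and Mmp11 only with it. No difference between the 2 comparisons passed for these 6 genes in the interaction test given below.

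**Figure D2:**
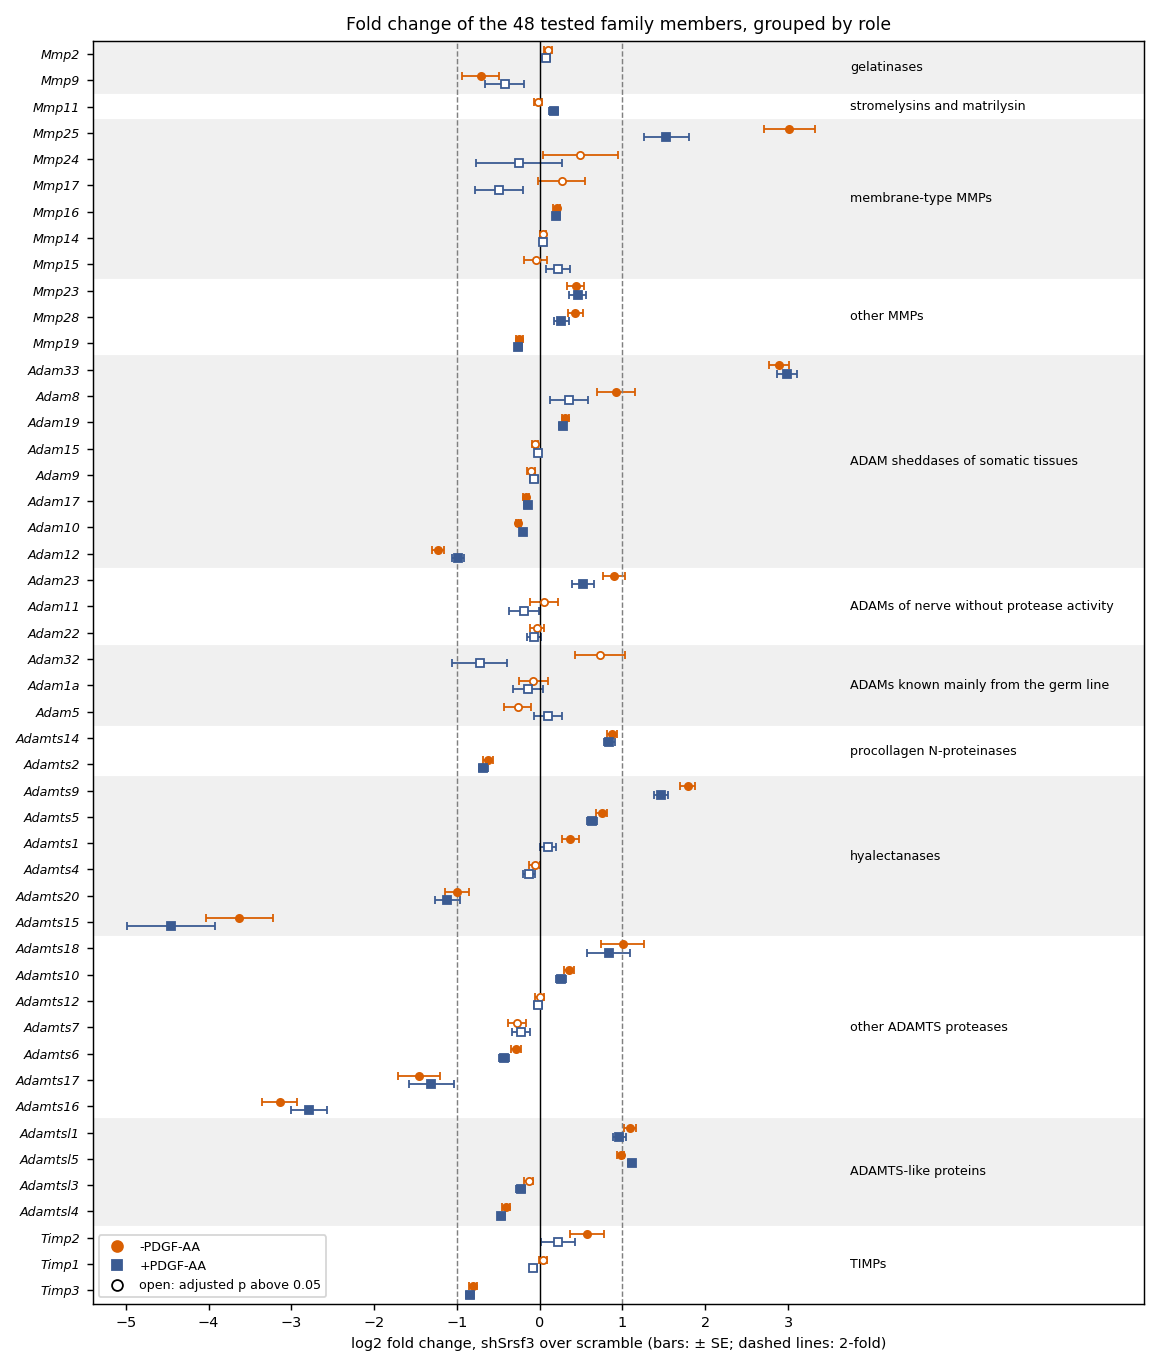
Log2 fold change (± SE) of shSrsf3 over scramble cells for the 48 tested members, grouped by role, without ligand (circles) and with ligand (squares). Filled symbols passed the test. Members of 1 role can lie on both sides of 0, such as the versican-cleaving Adamts9 at 1.788 and 1.465 and Adamts15 at -3.63 and -4.45.

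Among the 11 members DE in at least 1 of these comparisons, the first group had higher levels in shSrsf3 cells (Adam33, Adamts9, Adamtsl1, Adamtsl5, Mmp25 and Adamts18). Adam33, a membrane-anchored protease known from airway fibroblasts and smooth muscle, had 1.27, 1.68 and 1.86 CPM in the scramble -PDGF-AA libraries and 11.96, 11.6 and 12.8 CPM in the shSrsf3 -PDGF-AA libraries. In the presence of ligand it had 1.56, 1.15 and 1.47 CPM in scramble and 11.2, 11.2 and 10.9 CPM in shSrsf3 cells. Every shSrsf3 library lay far above every scramble library, although Adam33 was also lower in the libraries of lowest mapping rate, at 0.795 and 0.76 times the other scramble libraries without and with ligand. The rise was 7.41-fold without ligand (log2 fold change 2.89, SE 0.117, adjusted p = 5.52e-10) and 7.94-fold with it (2.99, SE 0.118, adjusted p = 4.9e-10). Without the libraries of lowest mapping rate, against the 1 scramble -PDGF-AA library left, the log2 fold change without ligand was 2.69.

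Adamts9, a versican-cleaving protease, had 5.33, 4.83 and 5.52 CPM in scramble -PDGF-AA and 17.3, 19.9 and 16.97 CPM in shSrsf3 -PDGF-AA libraries. With ligand the values were 6.41, 6.08 and 6.86 CPM in scramble and 19.6, 18 and 15.8 CPM in shSrsf3 libraries. The groups did not overlap, and Adamts9 rose 3.45-fold without and 2.76-fold with ligand (log2 fold changes 1.79 and 1.46, SE 0.0914 and 0.0894, adjusted p = 4.5e-09 and 2.77e-08).

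The ADAMTS-like proteins Adamtsl1 (punctin) and Adamtsl5, which bind matrix but do not cut it, rose by similar amounts. Adamtsl1 had 13.1, 13.3 and 15.4 CPM in scramble -PDGF-AA and 29.4, 28.2 and 32.0 CPM in shSrsf3 -PDGF-AA libraries, a rise of 2.13-fold (adjusted p = 7.76e-08). Its stimulated libraries had 14.9, 14.9 and 15.5 CPM in scramble and 32.1, 29.6 and 26.7 CPM in shSrsf3 libraries, a rise of 1.95-fold that fell short of the 2-fold minimum (adjusted p = 2.68e-07). Adamtsl5 had 40.8, 41.2 and 41.2 CPM in scramble -PDGF-AA and 82.7, 77.6 and 82.7 CPM in shSrsf3 -PDGF-AA libraries, or 1.97-fold (adjusted p = 8.12e-10). In stimulated cells it had 37.5, 37.6 and 38.9 CPM in scramble and 78.8, 82.4 and 84.9 CPM in shSrsf3 libraries, or 2.16-fold (adjusted p = 2.94e-10). Thus both genes were about doubled in each comparison, and the DE call changed between comparisons because their values lie at its edge.

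Mmp25, a membrane-type MMP held by a lipid anchor and known from neutrophils, rose from very few counts. Its scramble -PDGF-AA libraries had 2, 4 and 6 counts and its shSrsf3 -PDGF-AA libraries 52, 41 and 30, a ratio of pooled CPM of 8.09 (95% exact interval 4.47 to 16.1). With ligand the counts were 12, 9 and 13 in scramble and 20, 20 and 15 in shSrsf3 libraries, a ratio of 2.91 (1.86 to 4.6). The fitted log2 fold changes were 3.01 (SE 0.306, adjusted p = 3.43e-06) and 1.53 (SE 0.276, adjusted p = 5.5e-04). Adamts18, a protease with few known substrates, had 10, 17 and 24 counts in scramble -PDGF-AA and 52, 46 and 29 counts in shSrsf3 -PDGF-AA libraries. Its log2 fold change was 1.00 without ligand (SE 0.258, adjusted p = 0.00608) and 0.84 with it (SE 0.26, adjusted p = 0.0196). Without the 3 libraries of lowest mapping rate it was 0.83 (adjusted p = 0.099) and with ligand 0.71 (adjusted p = 0.0711), neither of which passed, the former against the 1 scramble -PDGF-AA library left and with the spread of the other groups. With ligand it also failed without scramble +PDGF-AA replicate 2 or 3 or shSrsf3 +PDGF-AA replicate 3 (adjusted p of 0.0704, 0.053 and 0.0969).

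The other DE members, Adamts15, Adamts16, Adamts17, Adamts20 and Adam12, had lower levels in shSrsf3 cells. Adamts15, another versican-cleaving protease, had 26, 25 and 74 counts in scramble -PDGF-AA and 6, 5 and 1 counts in shSrsf3 -PDGF-AA libraries, followed by 37, 49 and 41 counts in scramble and 1 count in each of the shSrsf3 libraries with ligand. The ratio of pooled CPM, scramble over shSrsf3, was 13.2 (95% exact interval 7.29 to 26.2) without and 23.5 (7.87 to 116) with ligand. The fitted log2 fold changes were -3.63 (SE 0.405, adjusted p = 8.06e-06) and -4.45 (SE 0.537, adjusted p = 1.81e-05). The libraries of lowest mapping rate held Adamts15 at 0.51 times the other scramble library without ligand and 1.39 times the others with it. Without scramble -PDGF-AA replicate 3, the log2 fold change of Adamts15 without ligand was -3.19. Its neighbour on chromosome 9, Adamts8, lies on the other strand, 19945 bases away, and had at most 2 counts in a library.

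Adamts16, a protease that can cleave fibronectin, had 3.64, 5.01 and 5.25 CPM in scramble -PDGF-AA and 0.466, 0.547 and 0.591 CPM in shSrsf3 -PDGF-AA libraries. In stimulated libraries it had 4.95, 5.18 and 3.83 CPM in scramble and 0.802, 0.743 and 0.451 CPM in shSrsf3 libraries. The groups lay far apart, and Adamts16 fell 8.83-fold without and 6.89-fold with ligand (log2 fold changes -3.14 and -2.79, SE 0.208 and 0.217, adjusted p = 5.58e-08 and 2.78e-07).

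Adamts17, which acts on fibrillin microfibrils, had 34, 42 and 58 counts in scramble -PDGF-AA and 28, 19 and 14 counts in shSrsf3 -PDGF-AA libraries, in CPM 0.937 ± 0.0463 against 0.342 ± 0.0471 (SD, n = 3). Its log2 fold changes were -1.46 (SE 0.249, adjusted p = 3.38e-04) and, with ligand, -1.31 (SE 0.27, adjusted p = 0.00157). Adamts20, the protease that shares versican and the palate with Adamts9, had 2.68, 3.43 and 2.97 CPM in scramble -PDGF-AA and 1.63, 1.47 and 1.396 CPM in shSrsf3 -PDGF-AA libraries. Upon stimulation the values were 3.69, 2.85 and 3.37 CPM in scramble and 1.60, 1.64 and 1.32 CPM in shSrsf3 libraries. It fell 2.00-fold and 2.17-fold (adjusted p = 9.01e-05 and 5.22e-05), opposite to Adamts9. Without ligand its value lay at the edge of the DE call. Leaving out 1 library at a time moved that log2 fold change between -1.072 and -0.904.

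Adam12 (meltrin alpha), a sheddase of embryonic mesenchyme and muscle, had 17.95, 17.7 and 17.9 CPM in scramble -PDGF-AA and 8.09, 7.02 and 7.65 CPM in shSrsf3 -PDGF-AA libraries. With ligand the values were 16.8, 18.1 and 16.1 CPM in scramble and 8.34, 7.87 and 9.56 CPM in shSrsf3 libraries. All shSrsf3 libraries lay below all scramble libraries. It fell 2.35-fold without ligand (log2 fold change -1.23, SE 0.0738, adjusted p = 2.11e-08) and 1.98-fold with it (-0.99, SE 0.0759, adjusted p = 2.53e-07), the latter just under the fold minimum.

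**Figure D3:**
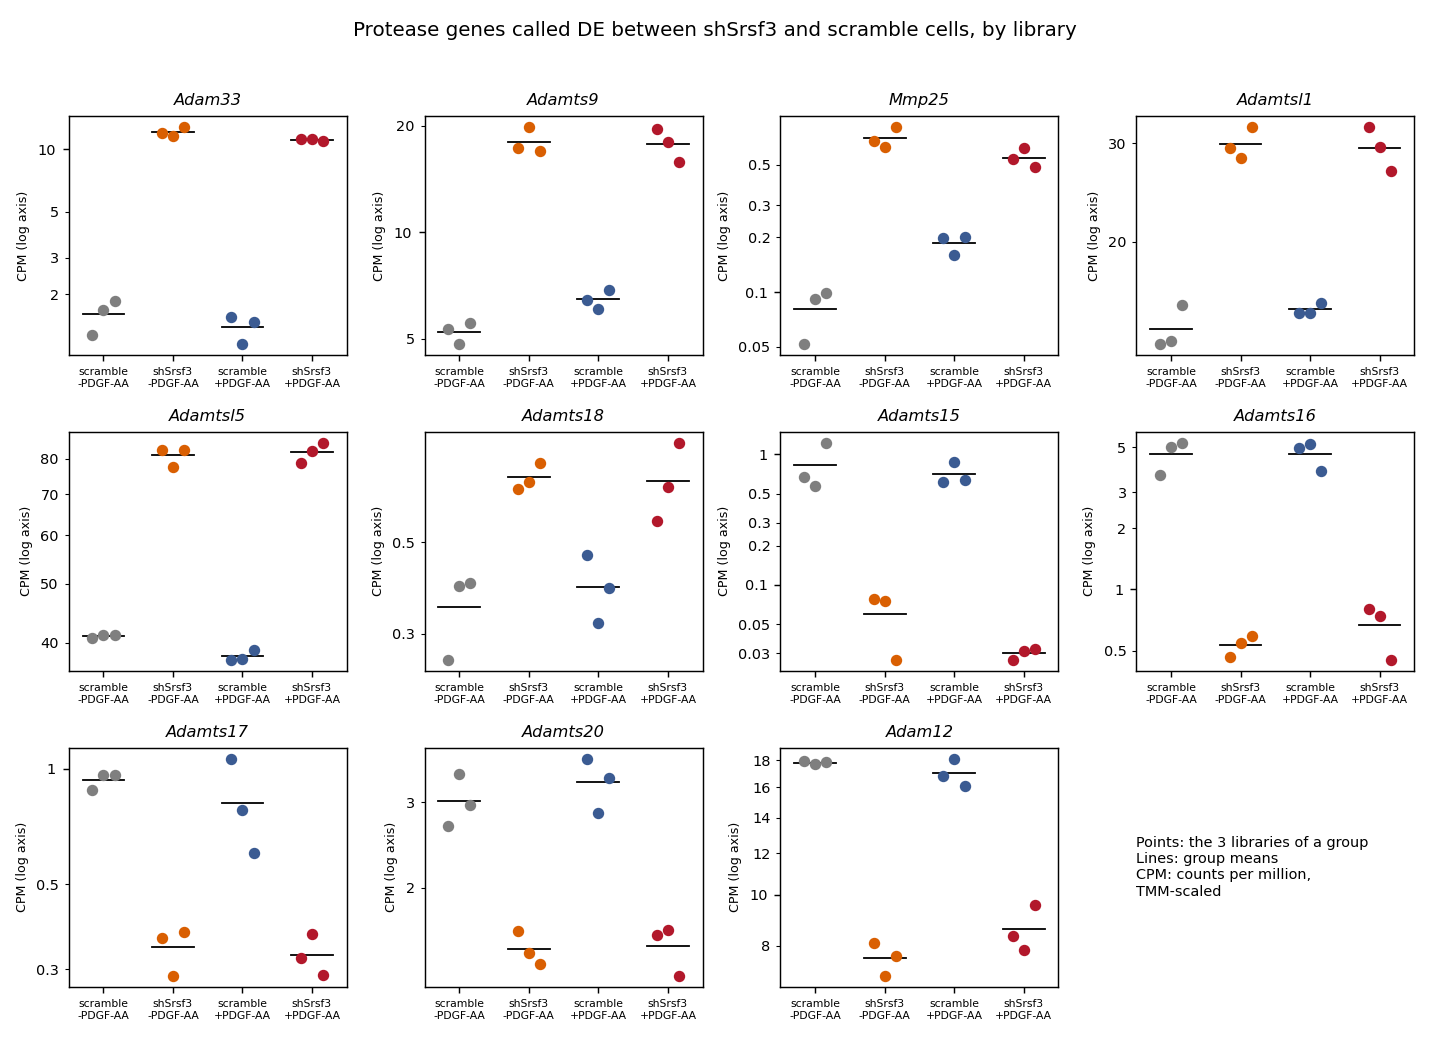
CPM in each of the 12 libraries for the 11 members called DE, on log axes that differ between panels, with lines at group means. The scramble and shSrsf3 libraries are separate in every panel, and Adamts15 reaches 1 count per library, about 0.03 CPM, in the shSrsf3 +PDGF-AA group.

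The MMPs with the highest levels differed little. Mmp14 had 423, 430 and 433 CPM in scramble -PDGF-AA and 449, 427 and 446 CPM in shSrsf3 -PDGF-AA libraries, and 431, 432 and 416 against 441, 453 and 424 CPM with ligand. The groups overlapped, with log2 fold changes of 0.04 (SE 0.0347, adjusted p = 0.37) and 0.04 (SE 0.0347, adjusted p = 0.349). Mmp2 had 414, 419 and 441 CPM in scramble -PDGF-AA and 463, 448 and 458 CPM in shSrsf3 -PDGF-AA libraries, and 426, 434 and 403 against 453, 465 and 411 CPM with ligand. Its groups did not overlap without ligand and overlapped with it. Its log2 fold changes were 0.10 (SE 0.047, adjusted p = 0.0896) and 0.07 (SE 0.047, adjusted p = 0.233). On leaving out 1 library at a time, the lowest adjusted p was 0.0269 and 0.0367, while 5 values in each comparison did not pass. Of the 6 membrane-type MMPs, Mmp16 and Mmp25 rose in both comparisons and the other 4 did not pass, with Mmp16 at 42.9 ± 1.91 CPM in scramble and 49.5 ± 1.9 CPM in shSrsf3 -PDGF-AA cells. Those that passed were 33.3% of the 6 in each comparison, against 45.9% of all genes without ligand and 41% with it. Among the remaining MMPs, Mmp23 and Mmp28 (epilysin) rose and Mmp19 fell in both comparisons, by log2 fold changes between -0.26 and 0.46. Mmp9, the second gelatinase, fell without ligand (log2 fold change -0.71, SE 0.223, adjusted p = 0.0189), from 1.24 ± 0.124 to 0.764 ± 0.154 CPM.

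Of 8 tested ADAMs with a protease domain that act in many tissues, Adam8, Adam19 and Adam33 rose and Adam10, Adam12 and Adam17 fell without ligand. Those that passed were 75% of the 8 without ligand and 62.5% with it, against 45.9% and 41% of all genes. Adam10, the protease that starts the release of Notch and of many membrane proteins, had 197, 193 and 188 CPM in scramble -PDGF-AA and 160, 158 and 166 CPM in shSrsf3 -PDGF-AA libraries. The stimulated libraries had 190.0, 188 and 197 CPM in scramble and 168, 164 and 166 CPM in shSrsf3 libraries. The libraries of the groups did not overlap, and the fall was small at 1.19-fold and 1.15-fold (adjusted p = 4.03e-05 and 2.75e-04). Adam17, the converting enzyme of tumor necrosis factor and a sheddase of EGF receptor ligands, had 49.5, 50.3 and 50.1 CPM in scramble -PDGF-AA and 44.9, 43.1 and 45.6 CPM in shSrsf3 -PDGF-AA libraries. With ligand it had 50.8, 50.6 and 50.3 CPM in scramble and 46.6, 47.2 and 43.3 CPM in shSrsf3 libraries. It fell 1.12-fold and 1.11-fold (adjusted p = 0.00366 and 0.00962), and in the presence of ligand it no longer passed without shSrsf3 +PDGF-AA replicate 3 (adjusted p = 0.0581). Adam19 (meltrin beta) rose from 64.6 ± 2.33 to 80.0 ± 2.25 CPM without ligand (log2 fold change 0.31, adjusted p = 5.84e-05) and by 0.28 with it. Adam9 and Adam15, both highly expressed, did not pass in either comparison, with log2 fold changes between -0.11 and -0.01. Among 3 ADAMs of nerve cells that lack protease activity, Adam23 rose in both comparisons, by 0.90 and 0.52 on the log2 scale, and Adam11 and Adam22 did not pass. None of the 3 germ line ADAMs passed, where 45.9% of all genes did without ligand and 41% with it.

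Of 15 tested ADAMTS proteases, 6 rose and 6 fell without ligand, and 5 rose and 6 fell with it. This was 40% in each direction without ligand and 33.3% and 40% with it, where all genes also split about evenly, at 22.2% higher and 23.7% lower without ligand and 20.3% and 20.7% with it. Adamts2 and Adamts14 both remove the amino-terminal propeptide of fibrillar procollagens. Adamts2, the major enzyme of skin, had 93.9, 94.4 and 90.2 CPM in scramble -PDGF-AA and 60.5, 58.9 and 61.3 CPM in shSrsf3 -PDGF-AA libraries, a fall of 1.54-fold (log2 fold change -0.62, SE 0.0557, adjusted p = 9.62e-07). Adamts14 had 8.21, 8.62 and 9.03 CPM in scramble -PDGF-AA and 16.1, 14.5 and 16.9 CPM in shSrsf3 -PDGF-AA libraries, a rise of 1.83-fold (0.87, SE 0.0639, adjusted p = 1.45e-07). With ligand the log2 fold changes were -0.68 and 0.84. The libraries of the groups did not overlap for either gene. The third enzyme of this role, Adamts3, had at most 4 counts in a library. Adamts2 remained the higher of both in shSrsf3 cells, at 8.19 ± 0.172 CPM per kb without ligand.

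The proteases that cleave versican and aggrecan were split as well. Without ligand, Adamts1, Adamts5 and Adamts9 rose, Adamts15 and Adamts20 fell, and Adamts4 did not pass (22.2 CPM in scramble and 21.4 CPM in shSrsf3 cells on average). Those that rose were 50% of this group and those that fell 33.3%, against 22.2% and 23.7% of all genes. Adamts5 (aggrecanase-2) had 232, 227 and 220 CPM in scramble -PDGF-AA and 376, 375 and 392 CPM in shSrsf3 -PDGF-AA libraries, a rise of 1.68-fold (log2 fold change 0.75, SE 0.066, adjusted p = 8.2e-07). With ligand it had 260.0, 267 and 307 CPM in scramble and 460, 445 and 389 CPM in shSrsf3 libraries, a rise of 1.55-fold (0.63, SE 0.0658, adjusted p = 4.5e-06). Its groups did not overlap in either comparison. Adamts1 had 243, 228 and 222 CPM in scramble -PDGF-AA and 306, 297 and 294 CPM in shSrsf3 -PDGF-AA libraries, a rise of 1.29-fold (0.37, SE 0.0995, adjusted p = 0.00776). With ligand its values were 282, 307 and 331 CPM in scramble and 375, 350 and 262 CPM in shSrsf3 libraries, which overlapped (0.10, SE 0.0993, adjusted p = 0.452). Leaving out 1 library at a time moved the log2 fold change with ligand from 0.001 (adjusted p = 0.996, without shSrsf3 +PDGF-AA replicate 1) to 0.24 (adjusted p = 0.00756, without the low replicate 3 of that group), and 5 of the 6 values did not pass. In the remaining ADAMTS proteases, Adamts10 and Adamts18 rose and Adamts6, Adamts16 and Adamts17 fell in both comparisons, while Adamts7 and Adamts12 did not pass. Adamts10 and Adamts6, a pair of close homologs that act on fibrillin microfibrils, differed by log2 fold changes of 0.36 and -0.29 without ligand. Adamts6 was also lower in the libraries of lowest mapping rate, by a term of -0.18 on the log2 scale (adjusted p = 0.00669). Among the ADAMTS-like proteins, Adamtsl4 fell (-0.41 and -0.46) where Adamtsl1 and Adamtsl5 rose, and Adamtsl3 fell with ligand (-0.23, adjusted p = 0.00521).

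Timp3 fell in shSrsf3 cells and remained the highest member. Its scramble -PDGF-AA libraries had 2966, 2838 and 2504 CPM and its shSrsf3 -PDGF-AA libraries 1542, 1557 and 1661 CPM. With ligand it had 2976, 3002 and 3075 CPM in scramble and 1694, 1688 and 1658 CPM in shSrsf3 libraries. No shSrsf3 library reached the lowest scramble library, and the fall was 1.75-fold without ligand (log2 fold change -0.80, SE 0.0504, adjusted p = 3.37e-08) and 1.80-fold with it (-0.85, SE 0.0504, adjusted p = 2.27e-08). The gene overlaps Syn3 on the opposite strand, and Timp1 overlaps Syn1 likewise. Timp1, the inhibitor that binds proMMP9, had 117, 117 and 111 CPM in scramble -PDGF-AA and 114, 117 and 123.0 CPM in shSrsf3 -PDGF-AA libraries, and 131, 132 and 127 against 116, 124 and 131 CPM with ligand. It did not pass in either comparison (log2 fold changes 0.04 and -0.07, SE 0.0466 and 0.0467, adjusted p = 0.511 and 0.225).

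Timp2, which inhibits MMPs and joins MMP14 to activate MMP2, had 62.8, 56.6 and 111 CPM in scramble -PDGF-AA and 115, 120 and 110 CPM in shSrsf3 -PDGF-AA libraries. With ligand it had 114, 79.2 and 115 CPM in scramble and 126, 124 and 109 CPM in shSrsf3 libraries. The 3 low values are those of the 3 libraries of lowest mapping rate, and the other 9 libraries lay between 109 and 126 CPM. Its log2 fold change without ligand was 0.57 (SE 0.201, adjusted p = 0.0326). Without those 3 libraries, against the 1 scramble -PDGF-AA library left and with the spread of the other groups, it was 0.04 (adjusted p = 0.725), and with a term for them 0.16 (adjusted p = 0.142). The call was lost on leaving out any library but scramble -PDGF-AA replicate 3, without which it was 0.95 (adjusted p = 4.72e-05). The term itself was -0.71 on the log2 scale (SE 0.0729, adjusted p = 3.23e-05), and of the other members only Adamts6 passed the test for it. The low libraries held Timp2 at 0.536 times the other scramble library without ligand and 0.692 times the others with it. Of the 31-base stretches in Timp2 transcripts, 7.05% also occur in other genes, and Cep295nl lies within the gene on the same strand. Timp4 had 1 count in each of 2 libraries and 0 in the other 10.

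**Figure D4:**
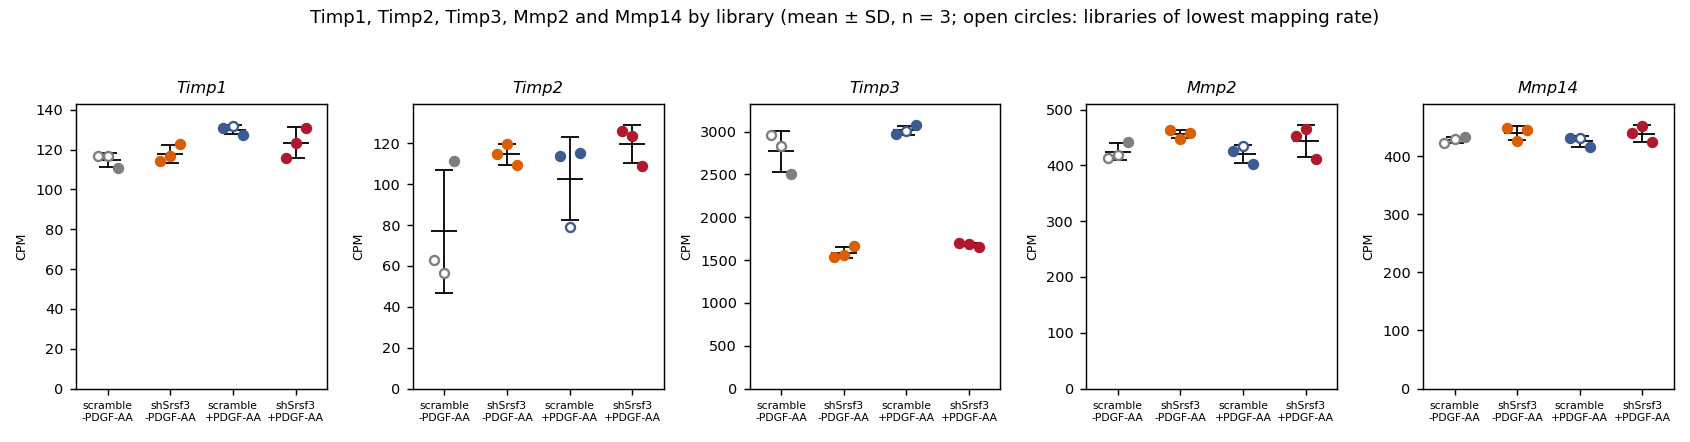
CPM in each library for Timp1, Timp2, Timp3, Mmp2 and Mmp14 (bars: mean ± SD, n = 3), with open circles for the 3 libraries of lowest mapping rate. Timp3 is separated by shRNA, whereas the low Timp2 values of 62.8, 56.6 and 79.2 CPM are all open circles, and Mmp2 and Mmp14 lie at like levels in the 4 groups.

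Next, the response to 1 hr of PDGF-AA was compared within each line. In scramble cells no member was DE, where 0.2% of all genes were, and 3 of 48 members (6.25%) passed the test without the fold minimum against 4.04% of all genes. DESeq2 also called 0 members DE, and 12 members (25%) had an unadjusted p under 0.05 in edgeR's test, against 17.6% of all genes. Without the fold minimum, Adamts1, Adamts5, Timp1 and Mmp11 passed by DESeq2's test (adjusted p of 0.0123, 2.02e-04, 0.00369 and 0.0427). The groups did not overlap for 12 members, or 25% against 18.8% of all genes. In shSrsf3 cells no member was DE or passed the test, against 0.0399% and 0.565% of all genes, with 9 members (18.8%) at an unadjusted p under 0.05, against 9.44% of all genes, and 0 calls by DESeq2. There, the groups did not overlap for 11 members, or 22.9% against 18% of all genes.

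The members that passed in scramble cells were Adamts1, Adamts5 and Timp1, all higher with ligand. Adamts1, from 231 ± 11.1 to 307 ± 24.7 CPM (SD, n = 3), rose 1.33-fold (log2 fold change 0.41, SE 0.0995, adjusted p = 0.0356). Adamts5, from 226 ± 6.14 to 278 ± 25.3 CPM, rose 1.23-fold (0.30, SE 0.0657, adjusted p = 0.0215). Timp1, from 115 ± 3.36 to 130 ± 2.26 CPM, rose 1.13-fold (0.18, SE 0.0465, adjusted p = 0.0473). As the values by library above show, each stimulated scramble library exceeded each unstimulated one for all 3 genes. In shSrsf3 cells the log2 fold changes were 0.14 (SE 0.0994, adjusted p = 0.734), 0.18 (SE 0.0655, adjusted p = 0.361) and 0.06 (SE 0.0467, adjusted p = 0.736), and the libraries overlapped. The scramble -PDGF-AA libraries serve in this comparison and in that of shSrsf3 with scramble cells without ligand. These calls were near the threshold in edgeR's test, and leaving out 1 library at a time lost Adamts1 in 4, Adamts5 in 2 and Timp1 in 5 of 6 cases. Without scramble -PDGF-AA replicate 2 or scramble +PDGF-AA replicate 3, 0 members passed. Without the 3 libraries of lowest mapping rate, which leaves 1 unstimulated scramble library and takes the spread from the other groups, the log2 fold changes were 0.47 (adjusted p = 0.13), 0.37 (adjusted p = 0.064) and 0.22 (adjusted p = 0.105), while Timp3 passed at 0.27 (adjusted p = 0.00707) and Mmp11 at -0.32 (adjusted p = 0.015). The library left, replicate 3, had the lowest Timp3 of its group and the highest Mmp11 (38.1 CPM, against 32.9 and 34.3 CPM).

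The interaction, the difference between the ligand's effects in shSrsf3 and scramble cells, passed for 0 of 48 members and for 0.0133% of all genes by edgeR's test, and for 0 members by DESeq2. Unadjusted, 6 members (12.5%) had a p under 0.05 (Mmp25, Adam32, Mmp11, Adamts9, Adam12 and Adamtsl5), against 5.54% of all genes, and the smallest adjusted p was 0.68, for Mmp25. For Adamts1, Adamts5 and Timp1 the interaction was -0.27 (SE 0.141), -0.12 (SE 0.0927) and -0.12 (SE 0.0659) on the log2 scale, with adjusted p of 0.874, 0.882 and 0.874. These data do not show a difference between the lines in the response of any member.

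Adamts1 and Adamts5 are neighbours on chromosome 16 (GRCm39), read from the same strand, 53051 bases apart with no coding gene between them. Adamts1 spans chr16:85590579-85600009 and Adamts5 chr16:85653061-85698716, both on the minus strand. The 150 bases before the start of the annotated transcript are shown for Adamts1, at chr16:85600010-85600159 (minus strand), and for Timp1, at chrX:20736201-20736350 (plus strand), as members that rose upon ligand stimulation. The sequence before Adamts5, which also rose upon ligand stimulation, is not shown. Capitals mark TATAAA and the GC box GGGCGG.
Adamts1: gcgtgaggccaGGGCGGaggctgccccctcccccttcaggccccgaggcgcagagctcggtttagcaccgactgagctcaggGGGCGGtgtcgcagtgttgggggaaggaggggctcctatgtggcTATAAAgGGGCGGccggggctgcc
Timp1: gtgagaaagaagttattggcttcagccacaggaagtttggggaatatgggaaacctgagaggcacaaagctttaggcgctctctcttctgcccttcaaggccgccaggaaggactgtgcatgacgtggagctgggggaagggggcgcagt

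In the 250 bases before the start, searched on both strands, TATAAA was found in 5 of 48 members, Adamts1 and Adamts5 among them. This was 10.4% of members, against 8.19% of the 14719 tested genes with such a sequence. In Adamts1, TATAAA lies on the strand of the gene, from 24 to 19 bases before the start. In Adamts5 it lies on the opposite strand, from 44 to 39 bases before the start. The AP-1 site TGANTCA was found in Adam19, Mmp19, Mmp28 and Mmp9, or 8.33% of members against 4.91% of genes. The cAMP response element TGACGTCA was in 0 members and 1.98% of genes, the CArG box in 1 member (Adam5) and 1.26% of genes, and GGGCGG in 24 members and 46.4% of genes. None of Adamts1, Adamts5 and Timp1 had the AP-1 site, the cAMP response element or the CArG box in this window.

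**Figure D5:**
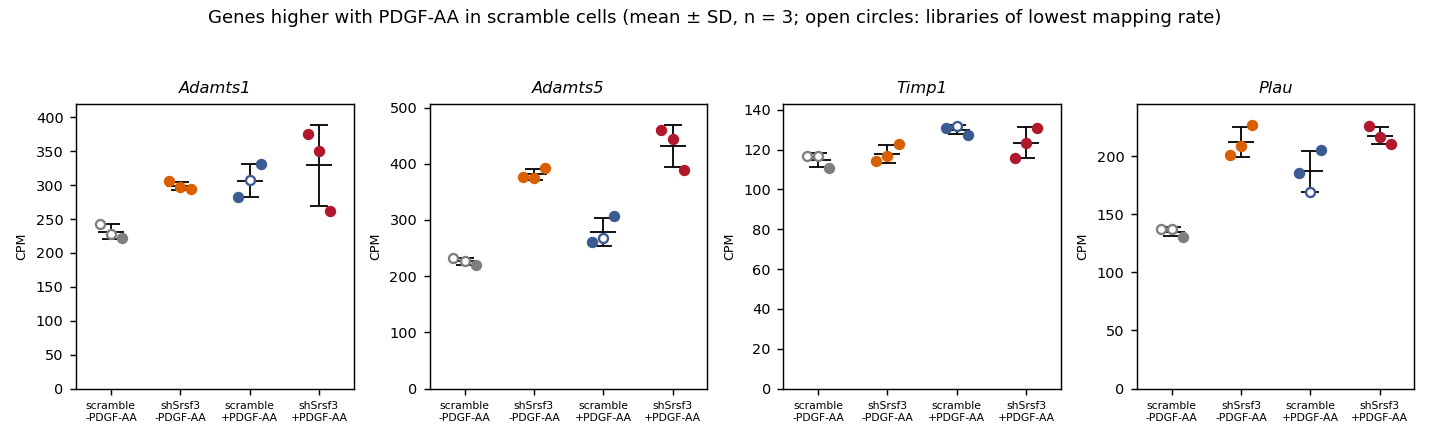
CPM in each library for Adamts1, Adamts5 and Timp1 and for Plau, which encodes urokinase (bars: mean ± SD, n = 3), with open circles for the 3 libraries of lowest mapping rate. The stimulated scramble libraries lie above the unstimulated ones in each panel, and the spread of Adamts1 in shSrsf3 +PDGF-AA cells, 262 to 375 CPM, exceeds that of the other groups.

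Other genes of the pathway were read from 3 lists. Of 27 tested activators and regulators of matrix proteases, 7 rose and 10 fell in shSrsf3 cells without ligand, and 7 rose and 7 fell with it. Together 63% and 51.9% passed, where 45.9% and 41% of all genes did. Proprotein convertases cut the propeptides of many ADAM, ADAMTS and membrane-type MMP proteins. Furin, the best known of them, had 107 ± 2.3 CPM in scramble and 107 ± 3.83 CPM in shSrsf3 -PDGF-AA cells and did not pass (adjusted p = 0.877). Pcsk6 (PACE4) fell 2.28-fold without and 2.35-fold with ligand, from 78.4 ± 0.828 to 34.4 ± 1.43 CPM in the absence of ligand (adjusted p = 4.66e-10). Pcsk5 also fell, from 14, 20 and 17 counts in scramble to 17, 6 and 6 counts in shSrsf3 libraries without ligand and from 30, 11 and 34 to 3, 3 and 1 counts with it (log2 fold changes -1.18 and -2.52, adjusted p = 0.0433 and 0.00257). Reck, a membrane-anchored inhibitor of MMPs, fell 1.11-fold without ligand (adjusted p = 0.0121) and did not pass with it (adjusted p = 0.109).

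Plau, the urokinase that makes plasmin, had 137, 138 and 131 CPM in scramble -PDGF-AA and 201, 209 and 227 CPM in shSrsf3 -PDGF-AA libraries, a rise of 1.57-fold (log2 fold change 0.65, SE 0.0626, adjusted p = 1.97e-06). Upon ligand stimulation of scramble cells it had 186, 169 and 205 CPM, a rise of 1.38-fold (0.47, adjusted p = 8.67e-04), and in shSrsf3 cells its log2 fold change was 0.04 (adjusted p = 0.922). The interaction was -0.43 (SE 0.0882, adjusted p = 0.243). Its rise with ligand in scramble cells held without the 3 libraries of lowest mapping rate (0.58, adjusted p = 0.00117). Serpine2, an inhibitor of thrombin and urokinase, fell 2.79-fold without and 2.93-fold with ligand in shSrsf3 cells, from 50.3 ± 1.7 to 18 ± 0.751 CPM without ligand (adjusted p = 2.29e-11). Spock3, a proteoglycan of the testican family, was DE with ligand (1.13, adjusted p = 0.00194) and did not pass without it (adjusted p = 0.124).

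Of 13 tested extracellular proteases of other families, 4 rose and 5 fell without ligand, and 2 rose and 4 fell with it, or 69.2% and 46.2% against the same 45.9% and 41% of all genes, the latter a share near that of all genes. Dpp4, a dipeptidyl peptidase of fibroblast surfaces, rose 3.10-fold and 2.86-fold from 7 to 19 counts per scramble library. Pcolce2, an enhancer of procollagen C-proteinases, was DE with ligand (-1.29, adjusted p = 0.00121) and fell by 0.71 on the log2 scale without it. Of 17 tested proteoglycan and matrix substrates, 4 rose and 8 fell without ligand, and 3 rose and 10 fell with it. Those that fell were 47.1% and 58.8% of the list, against 23.7% and 20.7% of all genes, and those that rose 23.5% and 17.6%, against 22.2% and 20.3%. Vcan, which encodes versican, rose 1.3-fold and 1.24-fold, from 88.4 ± 6.87 to 115 ± 5.77 CPM without ligand (adjusted p = 1.16e-04 and, with ligand, 6.58e-04). Dcn, which encodes the small proteoglycan decorin, rose 4.39-fold and 3.65-fold, from 19.6, 19.9 and 18.3 CPM to 86.7, 83.6 and 82.7 CPM without ligand (adjusted p = 6.56e-10). Bcan and Hapln1 were DE in opposite directions at 0 to 19 counts per library, lower and higher in shSrsf3 cells.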

How the data were processed

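Stranded mRNA was sequenced from 12 samples, 3 biological replicates in each of 4 groups taken from the labels. The authors trimmed reads, used Salmon 1.4.0 with the GENCODE M26 transcripts (GRCm39) to quantify them, and summed them per gene symbol with tximport, whose scaling is not given in the sources used here. The deposited unit is the expected count (an estimated count that need not be whole, 16.3% were not), and 0 columns were left out. Here, counts were rounded, filtered with filterByExpr (minimum count 10), scaled by TMM, and tested over 15037 genes with edgeR 4.0.16 (quasi-likelihood, 1 model with 4 group means, Benjamini-Hochberg adjustment, R 4.3.3). The SE is the log2 fold change over the root of F. Intervals and floors (3 counts) cover counting error only. Scripts were tested on simulated data.

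Members, role groups and lists were chosen with earlier results of these data known. Named genes were members DE in any comparison, the 10 highest levels per length, Timp1 to Timp4, Mmp2, Mmp14, Adam10, Adam17 and Adamts1, members that passed a ligand test, and list genes that were DE together with Reck, Furin, Plau and Vcan (1 further list gene is not reported here); other names were chosen after their values were seen. Of the lists, only Nrdc, among the extracellular proteases of other families, had no row. Positions, transcript lengths, shared 31-base stretches and upstream sequence come from GENCODE M39 on GRCm39 (all 85 symbols matched; Python 3.11.15, pysam 0.24.0, pandas 2.3.3). Alternatives were DESeq2 1.42.0 and its size factors, no count filter, no fold minimum, a replicate block, and leaving out libraries; a term for the 3 libraries of lowest mapping rate was added after seeing the data.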

Additional observations from a re-analysis of the deposited data

How the results depend on the processing

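Without the fold minimum, the DE counts of 10 and 8 members between shSrsf3 and scramble cells became 30 and 28, and that for ligand in scramble cells 3 in place of 0. Leaving out 1 library at a time gave 8 to 11 and 8 to 10 DE members between the lines, 28 to 32 and 25 to 28 that passed without a fold minimum, 0 to 0 DE with ligand and 0 to 4 that passed with ligand in scramble cells, the 0 on leaving out scramble -PDGF-AA replicate 2 or scramble +PDGF-AA replicate 3. Without a low-count filter, 7 members passed with ligand in scramble cells in place of 3, 1 (Adamts5) in shSrsf3 cells in place of 0, and 2 (Adamts1 and Timp2) had an interaction in place of 0, and the cause was not tested. With a replicate block the counts were 10, 8 and 0 DE, 30 and 28 passed, and 2 passed with ligand in scramble cells, where Timp1 had an adjusted p of 0.0585. Same-numbered replicates correlated between -0.27 and 0.4 in their deviations from group means. The highest values were 0.4 and 0.32, for replicates 2 and 3 of the scramble groups. Deviations within a group of 3 are tied to each other, so these values cannot settle whether the numbers pair the samples. Values with ligand were recomputed for Adamts1, Adamts5, Timp1, Timp2 and Timp3 alone, a limit set after seeing the data. Of 420 recomputed values of named members that passed, 389 still passed, 31 did not and 0 changed sign, and of 228 that had not passed 11 passed. Depth limits members under about 20 counts per library, such as Mmp25 in the scramble groups and Adamts15 in the shSrsf3 groups.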
